A study of Mus musculus with 23 samples.

Results

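Myo6, Coro2a, Xdh and 2610035D17Rik were followed in T cells of mice that carry amino acid substitutions at the STAT5B tyrosine named Y665. They are 4 of the 32285 genes in the expression matrices, and each was found once in every library. They were chosen by their UMI counts, which were higher in CD4 T cells of the lymph node (LN) of homozygous Stat5b Y665F mice than in those of wild-type (WT) mice. The cells of that choice were a CD4 T-like cluster, which can hold CD4 T cells with or without a Cd4 UMI. Levels in LN CD4 T cells are therefore a description and carry no test. Other cell classes, the other genotypes and other tissues were not part of that choice, except that LN heterozygotes were compared with the same WT mice.

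STAT5B is a transcription factor that is phosphorylated downstream of cytokine receptors such as those for interleukin 2 and interleukin 7, and then dimerises through its SH2 domain and binds DNA at GAS motifs. In T cells it is known for homeostasis, for memory cells and for regulatory T cells, which are marked by Foxp3. The chosen genes have no single pathway in common. Myo6 encodes myosin VI, the motor that walks towards the minus end of actin filaments and serves in endocytosis and vesicle transport. Coro2a encodes a coronin, a WD-repeat protein that binds actin and that is also found in the NCoR corepressor complex. Xdh encodes xanthine dehydrogenase, the molybdenum enzyme that makes uric acid in the last steps of purine breakdown. 2610035D17Rik is annotated as a long intergenic noncoding RNA.

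All mice were C57BL/6 animals of 2 months of age (edited in C57BL/6N embryos), and their cells were profiled by droplet single-cell RNA-seq (10x Genomics), in which each captured RNA molecule carries a unique molecular identifier (UMI). The Y665F and Y665H substitutions were introduced into the endogenous Stat5b gene by CRISPR/Cas9 and base editing, so every cell of the animal carried them, and no transgene or Cre was used. The LN libraries came from WT (n = 2), heterozygous Y665F (het, n = 3) and homozygous Y665F (homo, n = 2) mice, and matching T cell receptor (TCR) libraries were used to find cells with a paired alpha and beta chain. The spleen was represented by 1 library each of WT, Y665H and Y665F, described in the study as CD45+ cells pooled from 3 mice per genotype, and the bone marrow (BM) by 2 libraries each of WT, Y665H and Y665F. The labels do not give the zygosity of the spleen and BM samples. They name a 3′ kit where the methods name a 5′ kit, so levels were compared within a tissue and not across tissues.

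Where each gene lies, and what the annotation holds there, bears on how well its UMIs can be assigned. On mouse build GRCm38 (GENCODE vM21), Myo6 (ENSMUSG00000033577) spans chromosome 9 from 80165031 to 80311729 on the plus strand, and its longest transcript has 7927 bases in 35 exons. Coro2a (ENSMUSG00000028337) spans chromosome 4 from 46536937 to 46602202 on the minus strand. Xdh (ENSMUSG00000024066) spans chromosome 17 from 73883895 to 73950196 on the minus strand, where a processed pseudogene overlaps it. 2610035D17Rik (ENSMUSG00000087259) spans chromosome 11 from 113043895 to 113201838 on the minus strand, with 4 transcripts of which the longest has 1861 bases in 3 exons. The share of a gene's 31-base words that also occur in transcripts of other genes was 0.641% for Myo6, 4.5% for Coro2a, 1.54% for 2610035D17Rik and 14.4% for Xdh, so the counts of Xdh are the least certain of the group. Antisense transcripts overlap Myo6 (Gm27227) and Coro2a (Gm16731). Gm27227 had no UMI in any of the 10 sums of conventional CD4 T cells, and Gm16731 had 0 to 12.

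The stretches just before the transcription starts are given for 2 members, the 1 with the largest and the 1 with the most even difference in the LN. Shown 5′ to 3′ are the bases just before the RefSeq start of Myo6 (chr9:80164879-80165033, plus strand) and of 2610035D17Rik (chr11:113201839-113201993, minus strand), from GRCm38.p6, with matches to a TATA box (TATAAA), a GC box (GGGCGG) or a CCAAT box, named by its letters, on either strand in capitals.
Myo6: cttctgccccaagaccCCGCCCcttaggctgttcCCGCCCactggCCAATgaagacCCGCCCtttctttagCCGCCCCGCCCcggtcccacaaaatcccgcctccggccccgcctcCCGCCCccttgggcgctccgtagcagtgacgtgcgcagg
2610035D17Rik: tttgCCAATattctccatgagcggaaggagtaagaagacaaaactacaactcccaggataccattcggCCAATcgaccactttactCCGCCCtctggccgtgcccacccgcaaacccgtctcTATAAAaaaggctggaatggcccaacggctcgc
Over the 250 bases before the start, the Myo6 promoter had 67.6% G and C, 7 GC boxes, some of them overlapping, 1 CCAAT box and no TATA box. That of 2610035D17Rik had 48.8% G and C, a TATA box 33 bases before the start, 2 CCAAT boxes and 1 GC box. Of the starts listed for Coro2a, 1 had 73.6% G and C, 5 GC boxes and no TATA box, as Myo6 had none. Another had 49.2% G and C, 1 CCAAT box and neither a GC nor a TATA box. No start was listed for Xdh. Among all 32851 promoters of this length the median was 52.4% G and C, 12.4% held a TATA box, 33.8% a CCAAT box and 32.7% a GC box. The GAS motif that STAT proteins bind (TTCNNNGAA), held by 7.02% of all promoters, was not found in these letters for Myo6, 2610035D17Rik or the starts listed for Coro2a. A match in letters is a description and no binding site.

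CD4 T cells were gated here as cells with a Cd4 UMI and no Cd8a or Cd8b1 UMI, called conventional without a Foxp3 UMI and Foxp3 CD4 T cells with one. The gate overlaps the cells that chose the genes without being the same set. It held 168 to 930 conventional cells per LN library and 740 to 1616 per spleen library. All 8 CD4 T cell markers (Cd3d, Cd3e, Cd3g, Trac, Cd4, Lat, Tcf7 and Lef1) were detected in each of these 10 sums, at 3952 to 7278 CPM together (CPM being UMIs scaled to an equal total per sum), and a paired TCR was found for 77.7 to 91.1% of the LN cells. The B cell markers, 10 genes, added up to 313 and 409 CPM in the WT conventional CD4 sums of the LN and to 268 to 549 CPM in the Y665F ones. Of the 3 that were tested Cd79a was lower in het (fell by 1.71, SE 0.27), a call that was lost with DESeq2 and without het replicate 1. Ighm went the other way, with log2 fold changes of 0.76 (SE 0.19) in homo and 0.46 (SE 0.15) in het. Cd79b was at -0.09 in homo and -1.45 in het, and neither gene was called. The part of B cell RNA in the member levels was not tested. Neutrophil markers, 8 genes, added up to at most 0.767 CPM in the LN. In the spleen, however, they came to 22.7, 1204 and 3272 CPM in WT, Y665H and Y665F cells, with all 8 detected in each, and their part in the spleen results was not tested. The libraries differed in depth: LN medians ran from 368 to 3116 UMIs per barcode, with het replicate 3 and homo replicate 1 the shallowest, and spleen medians from 5046 to 6487. Cell barcodes shared by any 2 libraries were at most 2.89% of the smaller one.

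Myo6 was at a few CPM in LN conventional CD4 T cells of WT mice and higher in most Y665F libraries. Its level was 6.30 CPM (3 UMIs) and 6.80 CPM (9 UMIs) in the WT libraries, 17.2, 47.3 and 0 CPM in the het libraries (45, 39 and 0 UMIs) and 12.8 and 60.3 CPM in the homo libraries (1 and 28 UMIs). Every Y665F library except het replicate 3 was thus above both WT libraries. The absence of UMIs in het replicate 3 allows a level of up to 35.8 CPM (3 counts), since its 185 cells held only 83752 UMIs in all, and homo replicate 1 rested on a single UMI. In het replicate 2, 12 of the 39 UMIs came from 1 cell, which had an S100a4 UMI. Mean levels were 6.55 ± 0.354 CPM for WT (SD, n = 2), 21.5 ± 23.9 for het (n = 3) and 36.5 ± 33.5 for homo (n = 2). The fitted log2 fold change against WT was 2.99 (SE 0.64) in homo and 2.00 (SE 0.54) in het. It rested on homo replicate 2: without that library the homo value was 0.85.

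Because a Cd4 UMI is often missed in shallow libraries, a wider class was also summed: cells with a paired alpha-beta TCR and no Cd8a, Cd8b1, Foxp3 or Cd79a UMI, with or without Cd4. It was added after the data were seen, it contains most of the conventional CD4 cells and so is no independent sample, and the cells without a Cd4 UMI may include CD8 T cells. It held 1117 to 2726 cells per LN library. Myo6 was there at 8.36 and 7.44 CPM in WT (14 and 26 UMIs), 18.6, 34.1 and 20.2 CPM in het (70, 63 and 21 UMIs) and 42.3 and 52.6 CPM in homo (46 and 91 UMIs). In this class all 5 Y665F libraries were above both WT libraries, as were 3.83% of 9241 genes. The het values lay between WT and homo, and the share of all genes with that order was not computed. The log2 fold change was 2.70 (SE 0.31) in homo and 1.68 (SE 0.31) in het. Some genes of other cells were also higher in homo in this class, and others were lower. The gamma-delta T cell marker Tcrg-C1 had a log2 fold change of 2.51 in homo (SE 0.63, edgeR adjusted p 0.132) and was not called. The NK cell markers Gzma, Klre1 and Eomes were at -1.69, -0.17 and 1.10 in homo, and none was called. Ccl5 had log2 fold changes of 2.69 (SE 0.63) in homo and 1.41 in het, and the gamma-delta T cell markers added up to 3.58 and 5.15 CPM in WT, 7.18 to 11.6 CPM in het and 14.7 and 9.25 CPM in homo, while the CD8 genes of the gate were at 0 by its definition. Their part in the Myo6 difference was not tested. In the cells of the class that had neither a Cd4 nor a Cd8 UMI, which may also have been among the cells that chose the gene, Myo6 was at 9.37 and 7.91 CPM in WT, 21.2 to 25.0 CPM in het and 44.1 and 50.3 CPM in homo, and 4.27% of 8741 genes were likewise above WT in all 5 Y665F libraries there, from which nothing is read.

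Coro2a was higher in every Y665F library than in every WT library. In conventional CD4 T cells it was at 6.30 and 15.9 CPM in WT (3 and 21 UMIs), 38.7, 36.4 and 47.8 CPM in het (101, 30 and 4 UMIs) and 51.3 and 62.4 CPM in homo (4 and 29 UMIs). The het and homo libraries all lay above both WT libraries, as did those of 3.16% of 6837 genes. The homo libraries lay above the het ones, although the intervals of the shallow libraries were wide (13.0 to 122 CPM for het replicate 3). The share of all genes with that order was not computed. The log2 fold change was 2.24 (SE 0.40) in homo and 1.61 (SE 0.31) in het. With each library left out in turn it ran from 1.87 to 3.22 in homo and from 1.37 to 2.61 in het. Both were highest without WT replicate 2, the higher of the WT libraries. In the wider class Coro2a was at 16.7 and 14.3 CPM in WT, 34.3, 31.9 and 38.5 CPM in het and 54.3 and 35.8 CPM in homo. Its log2 fold change there was 1.59 (SE 0.23) in homo and 1.25 (SE 0.21) in het. Here homo replicate 2 lay among the het libraries, so the order of het and homo was not the same in both classes.

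2610035D17Rik, the noncoding RNA, had a difference of similar size in het and homo. It was at 14.7 and 16.6 CPM in WT (7 and 22 UMIs), 35.3, 44.9 and 35.8 CPM in het (92, 37 and 3 UMIs) and 51.3 and 36.6 CPM in homo (4 and 17 UMIs). No Y665F library reached down to the WT values, as for 3.16% of 6837 genes, and het and homo overlapped. The log2 fold change was 1.32 (SE 0.43) in homo and 1.32 (SE 0.29) in het. In the wider class it was at 19.1 and 17.5 CPM in WT, 31.6 to 54.0 CPM in het and 53.4 and 48.0 CPM in homo.

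Xdh, the purine enzyme, had the fewest UMIs of the group. It was at 6.30 and 7.55 CPM in WT (3 and 10 UMIs), 9.97, 9.71 and 23.9 CPM in het (26, 8 and 2 UMIs) and 12.8 and 23.7 CPM in homo (1 and 11 UMIs). All 5 Y665F libraries were above both WT libraries, by little in het replicates 1 and 2, as were those of 3.16% of 6837 genes. The log2 fold change was 1.63 (SE 0.78) in homo and 0.61 (SE 0.63) in het, the latter smaller than its error. Without homo replicate 2 the homo value was 0.74. In the wider class Xdh was at 5.38 and 6.58 CPM in WT, 12.0, 8.66 and 16.4 CPM in het and 19.3 and 18.5 CPM in homo, with a log2 fold change of 1.68 (SE 0.34) in homo.

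**Figure D1:**
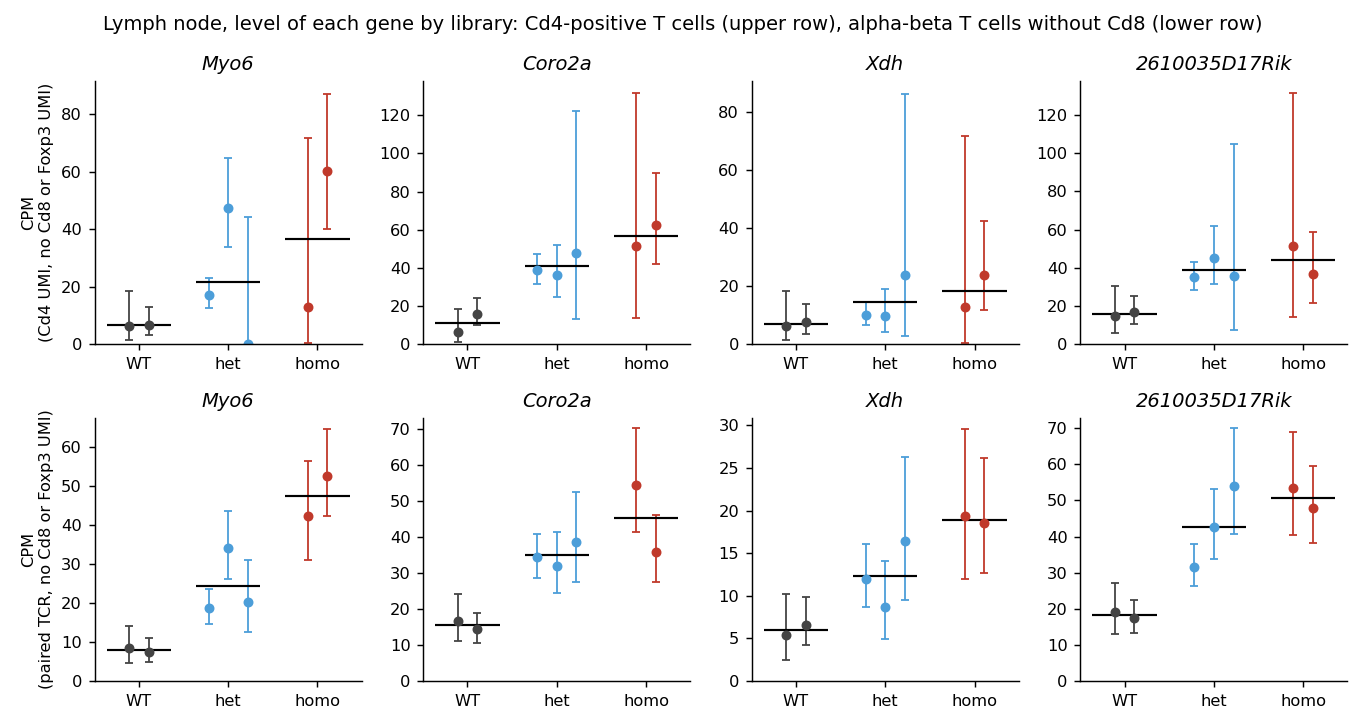
Level of each gene in LN T cells, in CPM (linear axis from 0), for conventional CD4 T cells (upper row) and for the wider class of alpha-beta T cells without Cd8 or Foxp3, most of them without a Cd4 UMI in 6 of the 7 libraries (lower row). Each point is 1 library (WT n = 2, het n = 3, homo n = 2), the bar its exact 95% Poisson interval and the black line the group mean; Myo6 lies at 7.44 and 8.36 CPM in WT and at 42.3 and 52.6 CPM in homo in the lower row.

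Of all 6837 genes that passed the count filter in LN conventional CD4 T cells, edgeR called 0.176% higher in homo than in WT (12 genes; adjusted p under 0.05 and more than a 2-fold change) and 0.146% lower (10 genes). In het 0.0878% were called higher (6 genes) and 0.205% lower (14 genes). Both counts of higher genes include members, 2 in each case. These were Myo6 and Coro2a in homo, which is what they were chosen for, and Coro2a and 2610035D17Rik in het, which was compared with the same WT libraries. DESeq2 called no member in either, both homo calls were lost without homo replicate 2, and the het calls without het replicate 1. That of 2610035D17Rik was also lost without WT replicate 2 or het replicate 2. Likewise 3.16% of the genes were higher in all 5 Y665F libraries than in both WT libraries, as were Coro2a, Xdh and 2610035D17Rik. In the wider class the background was 0.184% called higher (17 of 9241) and 0.108% lower in homo, the former including Myo6, Coro2a and 2610035D17Rik, 0.0216% in het (2 of 9241), including Coro2a, and 3.83% higher in all 5 libraries, as were the 4 members. Nothing is read from these counts, since overlapping homo and WT cells chose the genes and het was compared with the same WT libraries.

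Few genes related to the members by function were called. Of 6 other myosin heavy chain genes tested none was called in homo, with a median log2 fold change of -0.16, against -0.01 over all genes. None of 7 genes for myosin VI adaptors was called (median 0.15), nor any of 4 other coronin genes (median 0.05) or of the 6 genes of the NCoR and SMRT complex (median -0.15). For Xdh, none of 7 genes of purine breakdown and salvage (median 0.27) and none of 4 genes for molybdenum enzymes and their cofactor (median -0.21) was called. Of 14 STAT5 target genes, 1 was called higher, Pim1, a kinase gene (1.45, SE 0.21, edgeR adjusted p 0.000196), and the median was 0.02. In het none of these lists had a called gene. Of 8 naive T cell genes, Dapl1 was higher in homo (1.58, SE 0.20) and in het (1.41, SE 0.18), and Igfbp4 in het (1.01, SE 0.17). Of 9 memory and effector genes Lgals1, which encodes a galectin, was higher in homo (1.27, SE 0.24), and Maf, a transcription factor gene, was lower in het (fell by 1.58, SE 0.29), with -1.55 (SE 0.48, edgeR adjusted p 0.236) in homo. Of 8 regulatory T cell markers tested, Izumo1r, named after its values were seen, was lower in homo (fell by 1.30, SE 0.23). The others lay on both sides, from -0.40 (Tnfrsf4) to 0.40 (Tnfrsf18), and none was called. The homo calls of Pim1, Dapl1, Lgals1 and Izumo1r were all lost without homo replicate 2, and DESeq2 called only Dapl1 of them (adjusted p 0.00135). The Lgals1 call was also lost where cells with a UMI of other regulatory T cell genes (Ikzf2, Ctla4 or Il2ra) were left out and in a naive gate without S100a4. That of Maf in het was lost with DESeq2, without het replicate 1 and without those regulatory T cell genes, and Igfbp4 was called in 6 of 15 alternatives. In the wider class, Pim1 (1.06, SE 0.20) and the survival gene Bcl2 (1.04, SE 0.19) of the STAT5 list were called in homo, Dapl1 was higher in homo (1.30, SE 0.18) and het (1.13, SE 0.17), and Maf was lower in homo (fell by 1.76, SE 0.21) and het (fell by 1.43, SE 0.16). Each of these calls was lost without WT replicate 2, and DESeq2 made all of them. A bulk sum of this kind cannot tell a change in every cell from a change in the mix of cells.

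Of the 2 annotated genes nearest to each member on either side, 16 in all, only 4 had enough UMIs in these cells to be tested: Senp6 beside Myo6, Nans and Trim14 beside Coro2a, and Ehd3 beside Xdh. None was called in homo, and their log2 fold changes were -0.12, 0.10, 0.39 and 0.06. Senp6, whose end lies 20078 bases from the start of Myo6, was at 181 and 171 CPM in WT and at 205 and 144 CPM in homo. Impg1, 1601 bases beyond the other end of Myo6, had at most 2 UMIs in any LN sum.

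LN Foxp3 CD4 T cells were too few to describe the genes well. The gate held 24 and 56 WT cells, 83, 39 and 7 het cells and 5 and 20 homo cells. None of the 4 genes passed the count filter there, and of the 751 genes that did, edgeR called 0% (0 genes) in homo and in het, with 58 and 43 genes at an unadjusted p under 0.05 and 0 calls by DESeq2 in each. Coro2a had UMIs in both WT libraries, at 120 and 66.0 CPM (4 and 6 UMIs), and at 121 CPM in the deepest het library (40 UMIs). In het replicates 2 and 3 it was found in 3 of 39 and 1 of 7 cells. It had none in the 5 and 20 homo cells, which allows up to 135 CPM in homo replicate 2. Myo6 had no UMI in WT, 7 in het replicate 1 (21.1 CPM) and 1 in homo replicate 2. No member passed the filter in the comparison of Foxp3 with conventional CD4 T cells (1299 genes tested, 1.62% called higher and 1.08% lower) or of S100a4-positive with S100a4-negative conventional cells (892 tested, 4.71% called higher and 2.91% lower), S100a4 being a gene of memory and effector cells.

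In the spleen, with 1 pooled library per genotype, Myo6 and Coro2a were higher in Y665F than in WT conventional CD4 T cells, and the intervals of their Y665H ratios included 1. There is no replicate and so no test between genotypes here. Intervals are exact 95% ones from the UMI counts and cover counting error only. WT cells had 14.0 CPM of Myo6 (114 UMIs in 1362 cells), Y665H cells 10.7 CPM (103 UMIs in 1616 cells) and Y665F cells 125 CPM (617 UMIs in 740 cells). The Y665F library was thus far above the other 2, with a ratio to WT of 8.95 (7.32 to 11.03), while the ratio for Y665H was 0.766 (0.581 to 1.01). Coro2a was at 13.1, 11.8 and 40.0 CPM in the same order of genotypes, and its ratios were 3.05 (2.40 to 3.89) for Y665F and 0.896 (0.682 to 1.18) for Y665H. Where cells with a UMI of any of the regulatory T cell genes Foxp3, Ikzf2, Ctla4 or Il2ra were left out, the Coro2a ratio for Y665F was 4.39.

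Xdh and 2610035D17Rik differed less or not detectably in these cells. Xdh was at 13.5, 13.6 and 20.1 CPM, a ratio of 1.49 (1.12 to 1.97) for Y665F. With Cd3 required and cells with B or myeloid UMIs removed, this ratio was 1.24 (0.890 to 1.71), so the difference was no longer outside counting error. In a wider spleen class, T cells with a Cd3 UMI and without Cd8, Foxp3, Cd79a, Trdc, Ncr1 or Klrb1c UMIs, the Xdh ratio was 2.25 (1.81 to 2.81) for Y665F and 2.45 (2.002 to 3.004) for Y665H. Lyz2 UMIs were found in 4.11% of these cells in WT, 17.6% in Y665H and 13.7% in Y665F, and their part in the ratios was not tested. 2610035D17Rik was at 10.7, 11.8 and 12.0 CPM, a ratio of 1.12 (0.792 to 1.58) for Y665F. The labels do not give the zygosity of the spleen mice, and the kit may differ between spleen and LN. The difference between the tissues was not tested.

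**Figure D2:**
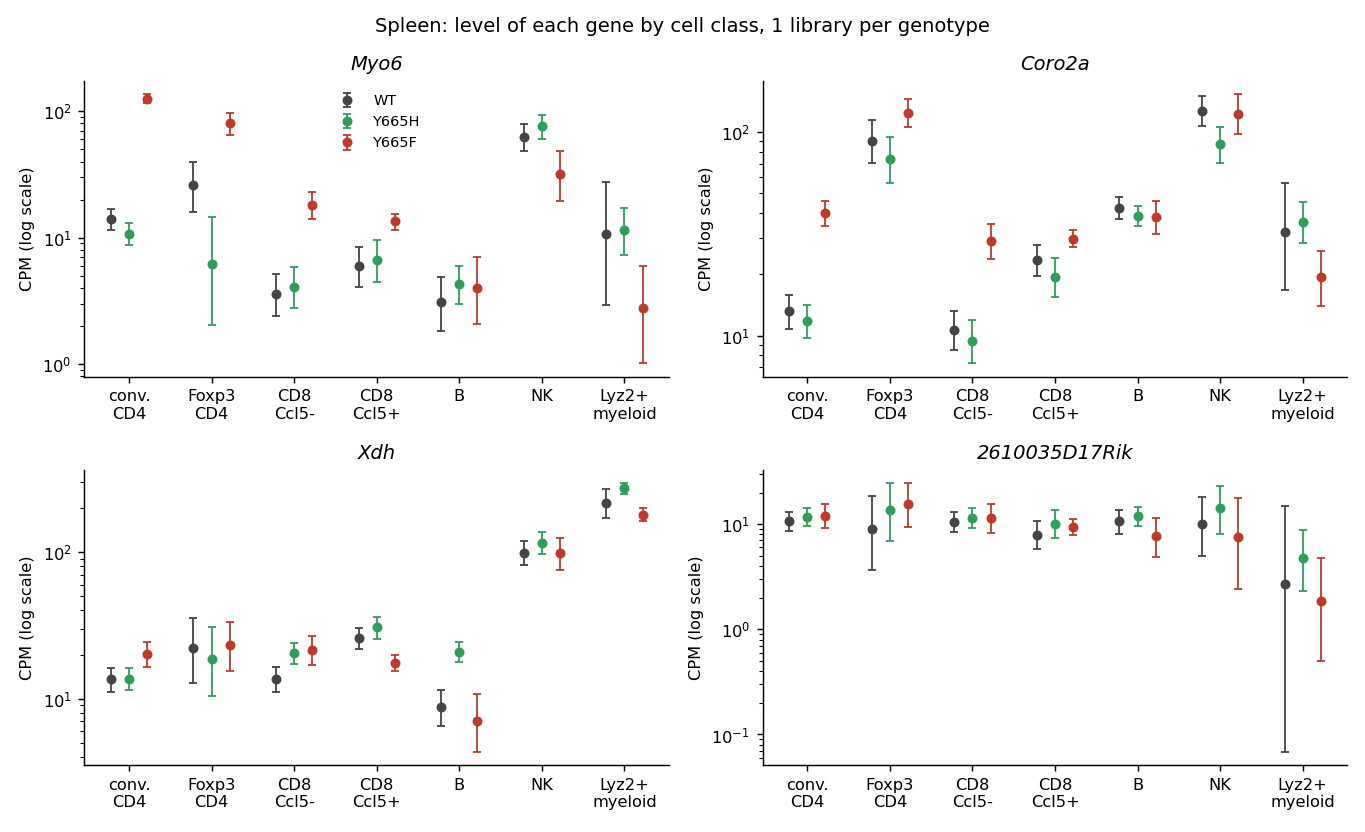
Level of each gene in 7 spleen cell classes, in CPM on a log axis, with 1 library per genotype (WT, Y665H, Y665F) and exact 95% Poisson intervals as bars. In conventional CD4 T cells Myo6 lies at 125 CPM in Y665F against 14.0 CPM in WT, and in B cells it lies at 3.08 to 4.29 CPM in all 3.

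The Myo6 UMIs of the Y665F spleen were spread over many cells. A Myo6 UMI was found in 33.4% of Y665F conventional CD4 T cells, against 5.51% in WT and 4.89% in Y665H, with median depths of 6433, 5777 and 5578 UMIs per cell. With each cell thinned to 2000 UMIs the shares were 16.2%, 2.30% and 1.81%, over the 735, 1348 and 1593 cells that were deep enough. In B cells, in which Myo6 was low, the share was 1.49% in Y665F, 1.35% in WT and 1.61% in Y665H at median depths of 3844, 3931 and 3899 UMIs. Of the 247 Y665F cells with Myo6, 109 had 1 UMI, 47 had 2 and 91 had 3 or more, whereas in WT 11 of 75 had 3 or more. For Coro2a the share of cells with a UMI was 20.3% in Y665F, 6.09% in WT and 4.89% in Y665H.

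In Y665F the cells with a Myo6 UMI carried less RNA of memory and effector genes than the cells without. An S100a4 UMI was found in 4.86% of the 247 cells with Myo6 and in 23.9% of the 493 without. The 12 memory and effector genes added up to 1405 CPM in cells with Myo6 and 3330 CPM in cells without, and each of the 12 was lower in the former. S100a4 itself was at 24.2 against 346 CPM, Itgb1, an integrin chain, at 77.9 against 428 CPM, and the chemokine gene Ccl5 at 90.8 against 553 CPM. The 8 naive T cell genes were at 3779 CPM in cells with Myo6 and 3077 CPM in cells without, and the 18 STAT5 target genes at 2065 and 2053 CPM. In WT and Y665H, whose cells with Myo6 were 75 and 79, the ratio of the memory and effector sum was 1.13 and 0.813, and the naive sum differed by little (1.03 and 1.01). All these cells are of 1 library per genotype, cells are not replicates, and no test was made. The cells of Y665F with Myo6 were also deeper (median 7353 against 5933 UMIs) and lower in neutrophil markers (317 against 5068 CPM), and the part of either in the difference was not tested.

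**Figure D3:**
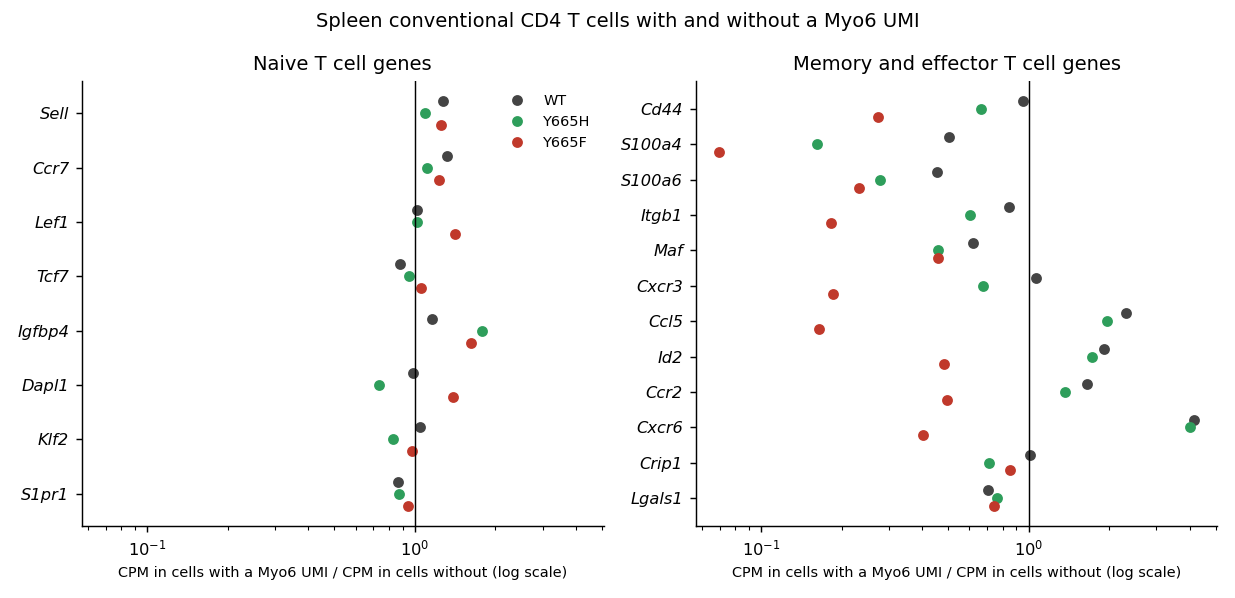
Ratio of CPM in spleen conventional CD4 T cells with a Myo6 UMI to that in cells without (log axis), for each naive T cell gene (left) and each memory and effector gene (right), with 1 point per genotype (1 library each). All 12 memory and effector genes lie below 1 in Y665F, down to 0.0698 for S100a4, while the Y665F points of the naive genes lie between 0.940 and 1.62.

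Split by S100a4, the Y665F level of Myo6 was higher than WT on both sides. It was 6.59, 10.2 and 42.0 CPM in S100a4-positive conventional CD4 T cells of WT, Y665H and Y665F, and 14.6, 10.8 and 141 CPM in S100a4-negative ones. The S100a4-positive levels rested on few cells. Of the cells with Myo6, 5.33% of 75 in WT, 8.86% of 79 in Y665H and 4.86% of 247 in Y665F had an S100a4 UMI. The S100a4-positive share of all conventional CD4 T cells was 7.20% in WT, 11.9% in Y665H and 17.6% in Y665F (98, 192 and 130 cells). The part of this mix in the Myo6 levels was not tested. Coro2a was higher in S100a4-positive than in S100a4-negative cells of each genotype. It was at 47.8, 42.2 and 63.0 CPM in S100a4-positive cells and at 10.4, 7.09 and 35.8 CPM in S100a4-negative cells. In WT the cells with a Coro2a UMI had a memory and effector sum 2.52 times that of the cells without, and a naive sum 0.525 times, and in Y665H the ratios were 2.74 and 0.322. In Y665F these ratios were 1.18 and 0.956. In that library the cells with Coro2a were high in neutrophil markers (8667 against 1762 CPM), which was not the case in Y665H (367 against 1258 CPM).

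In splenic Foxp3 CD4 T cells, too, Myo6 was highest in Y665F. The gate held 129 cells in WT, 133 in Y665H and 188 in Y665F, which was 8.65%, 7.60% and 20.3% of CD4 gate cells. WT had 25.9 CPM of Myo6 (20 UMIs), against 6.23 CPM (5 UMIs) for Y665H and 80.1 CPM (97 UMIs) for Y665F, with ratios to WT of 3.09 (1.90 to 5.28) for Y665F and 0.241 (0.0706 to 0.661) for Y665H. The Y665H library was thus below WT in this class, although on 5 UMIs in 3 cells. Coro2a was high in Foxp3 CD4 T cells of every genotype, at 90.7, 73.5 and 125 CPM, and its ratio for Y665F was 1.37 (1.03 to 1.85). The intervals of Xdh and 2610035D17Rik ratios included 1 for both alleles.

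Other splenic classes differed by gene. In CD8 T cells without Ccl5, Myo6 was at 3.59, 4.08 and 18.2 CPM in WT, Y665H and Y665F, and the Y665F ratio was 5.08 (3.24 to 8.15). Coro2a was there at 10.6, 9.39 and 29.1 CPM, a ratio of 2.74 (2.04 to 3.68). In CD8 T cells with Ccl5 the Y665F ratios were smaller, at 2.25 (1.55 to 3.37) for Myo6 and 1.27 (1.04 to 1.56) for Coro2a, and that of Xdh was below 1, at 0.678 (0.549 to 0.840). In gamma-delta T cells Myo6 was at 29.2, 27.2 and 78.5 CPM, a ratio of 2.69 (1.33 to 5.42) for Y665F. NK cells had the reverse order, at 62.3, 75.8 and 31.6 CPM in WT, Y665H and Y665F (68, 86 and 21 UMIs). In B cells no genotype stood out for Myo6, at 3.08, 4.29 and 3.997 CPM, or for Coro2a, at 42.4, 38.6 and 38.3 CPM.

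Ordered by their level within WT spleen, the classes differed from gene to gene. Myo6 was highest in NK cells (62.3 CPM), followed by gamma-delta T cells (29.2 CPM) and Foxp3 CD4 T cells (25.9 CPM), whose intervals overlapped, and lowest in CD8 T cells without Ccl5 (3.59 CPM) and B cells (3.08 CPM), which overlapped too. In Y665F, conventional CD4 T cells came first, at 125 CPM with an interval of 116 to 136. Coro2a was highest in NK cells (127 CPM) and Foxp3 CD4 T cells (90.7 CPM), with overlapping intervals. Xdh was highest in Lyz2-positive myeloid cells (216 CPM) and NK cells (99.0 CPM). 2610035D17Rik lay between 7.96 and 10.7 CPM in the lymphoid classes, whose intervals all overlapped. Lyz2 UMIs were found in 3.16% of WT, 14.7% of Y665H and 9.46% of Y665F conventional CD4 T cells. The Xdh level of those cells, given above, was about the same in WT and Y665H and higher in Y665F. The Xdh level of splenic B cells was 8.73 CPM in WT and 20.8 CPM in Y665H, where 3.30% and 13.0% of the B cells had a Lyz2 UMI. The part of myeloid RNA in these values was not tested.

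LN CD8 T cells and B cells were not the class that chose the genes, and here the difference between homo and WT was tested. Their sums come from the same WT and homo libraries as the choice, so a deviation of a whole library would enter both. The tests are thus not independent of the choice. In CD8 T cells without Ccl5, 2610035D17Rik was higher in homo. It was at 11.4 and 17.7 CPM in WT, 28.8, 31.2 and 21.9 CPM in het and 43.4 and 39.8 CPM in homo. All 5 Y665F libraries were above both WT libraries, as were 4.5% of the genes tested. The log2 fold change in homo was 1.41 (SE 0.25, edgeR adjusted p 0.0228), and the gene was 1 of the 6 of 8869 genes (0.0677%) called higher, while 0.0451% were called lower. The call was lost with either homo library left out (adjusted p 0.0704 and 0.2197) and with DESeq2 (adjusted p 0.161), with the log2 fold change between 1.25 and 1.82 over all left-out libraries. In het the log2 fold change was 0.93 (SE 0.20, edgeR adjusted p 0.207), and edgeR called 0 genes there (0%), with 516 genes at an unadjusted p under 0.05 and 1 call by DESeq2.

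The other members did not pass the test in LN CD8 T cells without Ccl5. Xdh was at 10.1 and 9.97 CPM in WT, 16.4, 22.2 and 17.9 CPM in het and 20.8 and 21.2 CPM in homo. All 5 Y665F libraries were above both WT libraries, as were 4.5% of the genes tested, and the log2 fold change was 1.09 (SE 0.32, edgeR adjusted p 0.226) in homo and 0.94 (SE 0.24, edgeR adjusted p 0.327) in het. Coro2a was at 12.8 and 24.4 CPM in WT, 29.0 to 41.7 CPM in het and 41.5 and 16.9 CPM in homo. The 2 homo libraries lay on either side of WT replicate 2, and the log2 fold change was 0.31 (SE 0.35, edgeR adjusted p 0.832) and turned to -0.23 without homo replicate 1. In het Coro2a changed by 0.74 on the log2 scale (SE 0.24, edgeR adjusted p 0.493). Myo6, at 2.69 and 1.38 CPM in WT, 2.56 to 3.98 CPM in het and 13.2 and 3.39 CPM in homo (7 and 4 UMIs), did not pass the count filter. None of the myosin, coronin, NCoR, purine, molybdenum or STAT5 target lists had a called gene in these cells in homo, with medians of -0.05 to 0.28 against 0.00 over all genes.

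In LN CD8 T cells with Ccl5, an effector class, and in LN B cells no member was called. Of 5633 genes in the former 0.0178% were called higher in homo, and of 8890 genes in B cells 0.0112%, which was 1 gene each, in the former Ccl5, the gene of the gate. Genes with all 5 Y665F libraries above or all below WT made up 8.34% and 8.77% in CD8 T cells with Ccl5 and 3.69% and 3.8% in B cells. 2610035D17Rik was at 47.8 and 17.6 CPM in WT CD8 T cells with Ccl5 and at 70.1 and 55.7 CPM in homo, and its log2 fold change was 1.12 (SE 0.42, edgeR adjusted p 0.569). Coro2a had the opposite direction in these cells, at 47.8 and 46.9 CPM in WT, 36.5 to 52.7 CPM in het and 40.1 and 24.9 CPM in homo. Its log2 fold change in homo was -0.70 (SE 0.38, edgeR adjusted p 0.716) and stayed negative, from -0.86 to -0.29, in the 13 alternatives run. In B cells 2610035D17Rik was at 31.2 and 20.5 CPM in WT and at 12.0 and 25.3 CPM in homo, so the groups overlapped, and the log2 fold change was -0.18 (SE 0.40, edgeR adjusted p 0.968). Coro2a in B cells was at 46.1 and 43.3 CPM in WT, 43.5 to 54.6 CPM in het and 48.0 and 52.4 CPM in homo. Its log2 fold change in homo there was 0.23 (SE 0.23, edgeR adjusted p 0.915), and the range of the het libraries overlapped with those of WT and homo. Myo6 was at 0 to 5.07 CPM in all 7 B cell sums. Whether the difference between homo and WT was itself different in Foxp3 CD4 and in CD8 T cells without Ccl5 cannot be judged for the members. In that fit 0.0137% of 7325 genes were called lower and 0% higher, but Coro2a and 2610035D17Rik entered it through their CD8 counts, and Coro2a had no UMI in the homo Foxp3 cells.

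**Figure D4:**
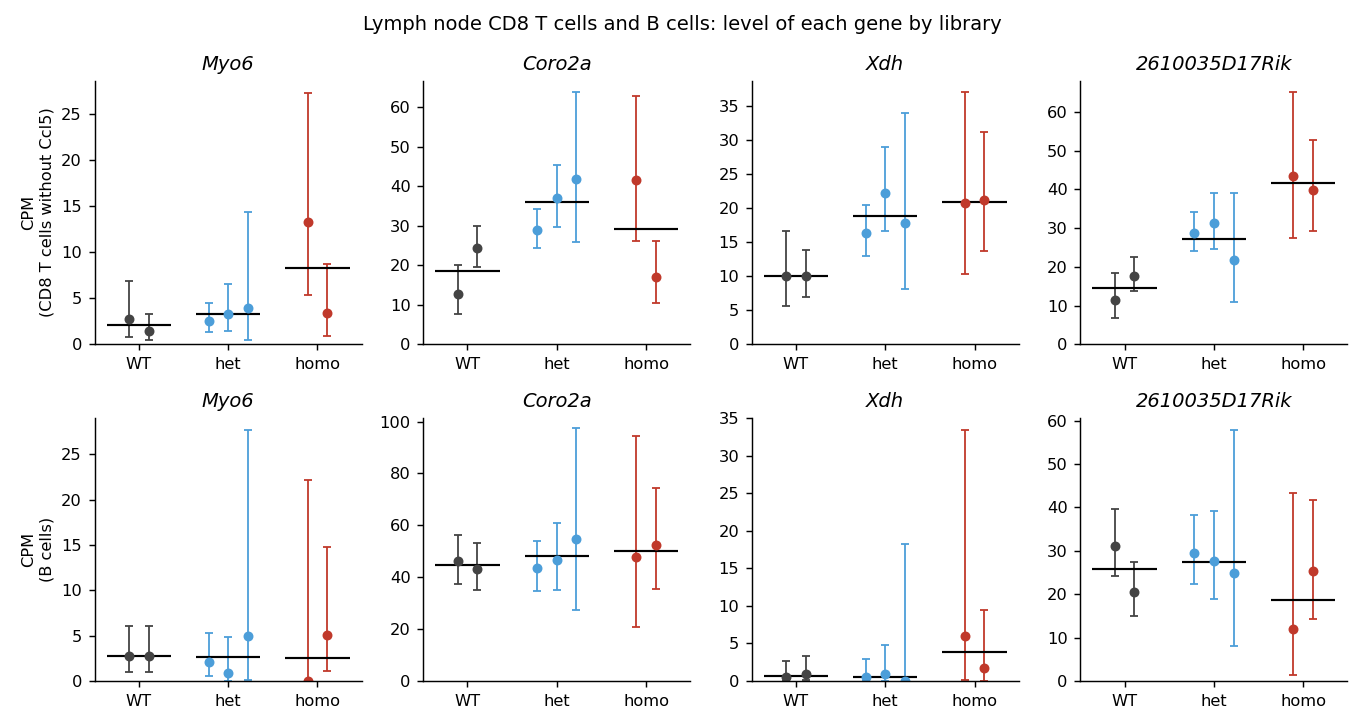
Level of each gene in LN CD8 T cells without Ccl5 and B cells, in CPM (linear axes from 0), with 1 point per library (WT n = 2, het n = 3, homo n = 2), its exact 95% Poisson interval and the group mean as a black line. 2610035D17Rik lies at 11.4 and 17.7 CPM in WT and at 43.4 and 39.8 CPM in homo CD8 T cells without Ccl5, and Coro2a lies between 43.3 and 54.6 CPM in all B cell sums.

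In BM, Coro2a was higher in Y665F and the other 3 genes did not pass both thresholds. These libraries are no T cell samples: the CD4 T cell markers together were at 26.5 to 50.4 CPM and the 2 CD8 markers at no more than 0.372 CPM, and whole libraries were summed. WT libraries had 32.6 and 24.8 CPM of Coro2a, Y665H libraries 15.9 and 20.5 CPM and Y665F libraries 66.2 and 77.8 CPM. Both Y665F libraries were above both WT libraries, as were 40.1% of all genes. The log2 fold change was 1.17 (SE 0.21, edgeR adjusted p 0.00121) in Y665F, where 8.1% of 13923 genes were called higher and 8.66% lower, and -0.39 (SE 0.21, edgeR adjusted p 0.880) in Y665H. Neutrophil markers were also higher in Y665F, at 38.4 and 145 CPM in the WT libraries, 200 and 142 CPM in the Y665H ones and 3495 and 1490 CPM in the Y665F ones. Within each genotype, however, the library with more of them had less Coro2a. Their part in the difference was not tested. As in any sum over cells, more cells of a type and more RNA per cell cannot be told apart here.

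Myo6 was low in BM, at 1.67 and 0.833 CPM in the WT libraries, 0.999 and 0.772 CPM in the Y665H ones and 2.48 and 2.87 CPM in the Y665F ones. Both Y665F libraries were again above both WT libraries, as were 40.1% of all genes. The log2 fold change, 0.99 (SE 0.36, edgeR adjusted p 0.0482), lay just under the fold threshold. It was past it without WT replicate 1 (1.34, adjusted p 0.0290) and without the filter on low counts (1.02, adjusted p 0.0334), and at 0.67 (adjusted p 0.257) without WT replicate 2, all by edgeR. Xdh was at 2.91 and 2.14 CPM in WT and 3.26 and 2.29 CPM in Y665F, and the log2 fold change was -0.01 (SE 0.31, edgeR adjusted p 0.984). 2610035D17Rik was at 9.67 and 8.33 CPM in WT and, as were 24.6% of all genes, lower in both Y665F libraries at 7.36 and 7.91 CPM, and its log2 fold change was -0.40 (SE 0.24, edgeR adjusted p 0.216). In Y665H against WT edgeR called none of the members and 0% of all genes (0 of 13923, with 723 at an unadjusted p under 0.05 and 3 calls by DESeq2), and the members' log2 fold changes ran from -0.39 to 0.27.

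**Figure D5:**
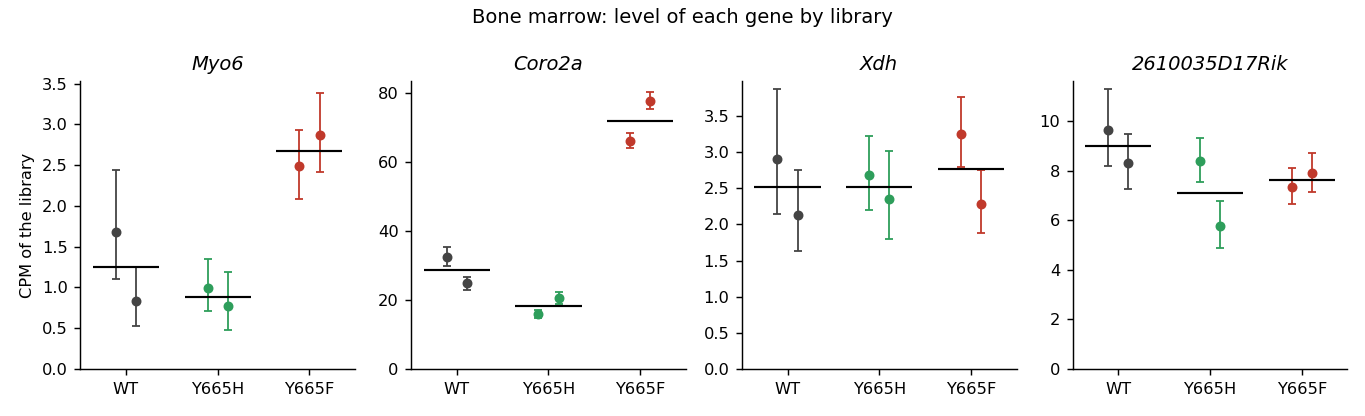
Level of each gene in whole BM libraries, in CPM (linear axes from 0), with 1 point per library (WT, Y665H and Y665F, n = 2 each), its exact 95% Poisson interval and the group mean as a black line. Coro2a lies at 66.2 and 77.8 CPM in Y665F and at no more than 32.6 CPM in the other 4 libraries.

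Genes of the related lists were called in BM in both directions, in a comparison that called 8.1% of all genes higher and 8.66% lower, and counts of 1 or 2 in a list are read against those shares. Of 17 STAT5 target genes, 7 were called higher in Y665F, among them the feedback inhibitor genes Socs2 (4.17, SE 0.23), Cish (2.76, SE 0.25) and Socs3 (2.05) and the cytokine gene Lif (2.76), and Lta and Il2rb were lower, with a list median of 0.46 against 0.04 over all genes. Of 17 other myosin heavy chain genes Myo5c (1.80, SE 0.41) and Myo10 (1.04, SE 0.26) were higher, and of 11 myosin VI adaptor genes Gipc1 was lower (fell by 1.76, SE 0.27). Of 5 other coronin genes Coro2b was higher (1.39, SE 0.47) and Coro1b lower (fell by 1.21, SE 0.25), and of the 6 NCoR and SMRT complex genes Gps2 was lower (fell by 1.05, SE 0.23). Of 11 purine genes, Gda (2.20, SE 0.32) and Ampd2 (1.21, SE 0.23) were higher and Pnp2 (fell by 1.40, SE 0.28) and Adk (fell by 1.15, SE 0.21) were lower, and none of 7 molybdenum enzyme and cofactor genes was called. Of the tested neighbours, Ehd3 beside Xdh was higher (2.29) and Nans beside Coro2a lower (fell by 1.51), against the members' own -0.01 and 1.17. DESeq2 did not call Coro2b (adjusted p 0.126), Lif (0.0853) or Lta (0.109). The Coro2b call was also lost without any 1 of the WT and Y665F libraries, that of Lif without WT replicate 1, those of Lta, Myo10 and Gps2 without WT replicate 2 or Y665F replicate 2, that of Il18r1, another of the STAT5 targets, without WT replicate 1 or Y665F replicate 2, that of Il2rb without Y665F replicate 1, and that of Coro1b without Y665F replicate 2. In Y665H no gene of these lists was called.

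Within single CD4 T cells the number of times members were found together was compared with what their shares and the cells' depths give. Over all 6 pairs, 109 pairs of members were seen in Y665F splenic conventional CD4 T cells against 127 given by the shares within 10 classes of depth, 35 against 30.5 in WT and 35 against 31.1 in Y665H. Single pairs lay on both sides. For Myo6 with Coro2a the numbers were 54 and 55.1 in Y665F and 10 and 4.86 in WT, for Coro2a with Xdh 10 and 5.11 in Y665H, and for Coro2a with 2610035D17Rik 5 and 9.77 in Y665F. No test was made on these cells of single libraries. Across 35 sums (5 LN cell classes in 7 libraries), the members' log2 levels were related to each other with Pearson's r between -0.175 and 0.421. The genes whose pattern was most like that of a member over the same sums were Bpgm (0.753) and Pank3 (0.704) for Myo6, Hyou1 (0.894) for Coro2a, 2010016I18Rik (0.905) for Xdh and Tpgs1 (0.874) for 2610035D17Rik. The medians over all 6836 other genes were 0.219, 0.182, 0.272 and 0.0611. The sums share libraries, cell classes and depth, and the smallest hold few UMIs, so these values are a description.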

How the data were processed

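The authors aligned the reads with Cell Ranger (5.0.0 for lymph node, 6.0.0 for spleen and bone marrow, per the file headers) to GRCm38 and deposited filtered matrices of raw UMI counts per gene and cell. From these counts, barcodes with under 200 genes or over 10% mitochondrial UMIs were removed, and simulated doublets served to remove likely doublets from lymph node and spleen (170 to 679 per library). The bone marrow libraries were summed whole, with no doublet removal. Total UMIs per library ran from 2621583 to 55768078. Cells were put into classes by marker UMIs and counts were summed per library and class. Levels are CPM of a sum's UMIs, with exact Poisson intervals.

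Sums were tested with edgeR 4.0.16 (TMM, filterByExpr, quasi-likelihood test, Benjamini-Hochberg over all genes that passed, in R 4.3.3), with all libraries of a tissue in 1 fit and genes called where the adjusted p was under 0.05 and log2 fold change beyond 1 in size. SE is the fold change divided by the root of F. Scripts were tested on simulated data. DESeq2 1.42.0, no filter, left-out libraries, other gates and a replicate block were the alternatives. Python 3.11.15 with scipy 1.17.1 made the sums and intervals, and sequences came from RefSeq. The labels number replicates without naming animals, so p-values measure the spread between these libraries. No label ties equal replicate numbers together, so libraries were not paired.

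The members, gene lists and gates were chosen with earlier results of these data known. Genes named beside the members are called ones of the functional lists (not the marker lists), up to 5 a list. More were named for the STAT5 targets in BM, and Maf was also given where it was not called. The markers Izumo1r, Cd79a, Cd79b and Ighm and those of other cells in the wider class were added afterwards. Also named are the 2 annotated genes nearest on either side, and for each member the 5 with the highest correlation over 35 sums. Spleen has 1 library per genotype and gets no test. Of 32285 identifiers 32158 matched GENCODE vM21.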

Additional observations from a re-analysis of the deposited data

Results flagged for a closer look

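One result went in opposite directions in different tissues. Summed over all cells, 2610035D17Rik in the LN was higher in both homo libraries (51.0 and 46.9 CPM) than in both WT libraries (21.5 and 16.8 CPM), a ratio of mean CPM of 2.55. In BM it was lower in both Y665F libraries (7.36 and 7.91 CPM) than in both WT libraries (9.67 and 8.33 CPM), a ratio of 0.848. The BM difference was not called (log2 fold change -0.40, SE 0.24, edgeR adjusted p 0.216). The LN sums include the cells that chose the gene, and the difference between the tissues was not tested. The share of all genes with such a difference in these LN sums was not computed. In BM 24.6% of the genes had both Y665F libraries below both WT libraries, and the cells differ between the tissues. The labels do not give the zygosity of the BM mice. The paper describes homozygous mice for its cell counts in BM and does not repeat this for the single-cell libraries.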

How the results depend on the processing

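Counts of called genes and some members' fold changes depended on the settings. Over all alternatives the homo log2 fold change in LN conventional CD4 T cells ran from 0.85 to 3.94 for Myo6 and from 1.59 to 3.22 for Coro2a. Without the filter on low counts, the calls were 39 in LN conventional CD4 T cells in homo (22 as reported) and 63 in het (20), 1 in Foxp3 het (0), 49 in CD8 T cells without Ccl5 in homo (10) and 15 in het (0), 6 in those with Ccl5 (1), 60 in B cells (1), 413 for Foxp3 against conventional cells (35), 829 for the S100a4 split (68) and 47 in BM Y665H (0). DESeq2 gave, for the same comparisons, 2 and 3 in conventional CD4, 5 and 1 in CD8 without Ccl5, 132 and 224 for the 2 splits, 3 in BM Y665H and 0 for the difference between Foxp3 and CD8 cells (1), and called no member in LN conventional CD4 T cells. Without the 2 shallowest libraries the counts were 3 in Foxp3 het, 3 in CD8 without Ccl5 het, 10 in CD8 with Ccl5, 30 in B cells, 209 and 212 for the splits and 2 for the difference. With doublets kept they were 1 and 2 in Foxp3 homo and het, 24 in CD8 without Ccl5 homo and 2 for the difference. Stricter T cell gates gave 12 in conventional CD4 het, 4 in CD8 without Ccl5 het, 3 in CD8 with Ccl5 and 3 for the difference. Leaving out regulatory T cell genes gave 11 in conventional CD4 het, the naive gate 10 in homo, and the wider class 4 in het. In the spleen the Y665F ratio of Coro2a was 4.39 without regulatory T cell genes and 4.49 in the naive gate, that of 2610035D17Rik 0.761 without regulatory T cell genes, and in the wider class Xdh was 2.25 in Y665F and 2.45 in Y665H. The causes were not tested.

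Leaving out each replicate in turn gave 1 to 47 calls in conventional CD4 homo (1 without homo replicate 2, 47 without WT replicate 1), 12 to 43 in het (12 without het replicate 1), 0 in Foxp3 homo and 0 to 1 in het, 6 to 25 in CD8 without Ccl5 homo and 0 to 5 in het, 0 to 6 in CD8 with Ccl5, 0 to 20 in B cells, 31 to 122 and 64 to 78 for the splits, 0 to 4 for the difference, 1511 to 2730 in BM Y665F (2334) and 2 to 29 in BM Y665H. Some members changed sign. Coro2a in CD8 without Ccl5 homo ran from -0.23 (without homo replicate 1) to 0.99 (without homo replicate 2), and was -0.23 without the 2 shallowest libraries. 2610035D17Rik in B cells ran from -1.19 (without homo replicate 2) to 0.19 (without WT replicate 1) and was 0.0325 without the 2 shallowest, and for the difference it ran from -8.30 (without homo replicate 2, where the remaining homo Foxp3 cells had no UMI of the gene, so that the size depends on the fit's prior count) to 0.0492 (without WT replicate 1). In BM, Xdh in Y665F was 0.0170 without the filter and ran from -0.35 (without Y665F replicate 1) to 0.23 (without Y665F replicate 2), and in Y665H Myo6 ran from -0.48 (without WT replicate 2) to 0.18 (without WT replicate 1) and 2610035D17Rik from -0.34 to 0.14 (without Y665H replicates 1 and 2). The Xdh ratio in Y665H spleen CD8 without Ccl5 was 0.841 in the stricter gate, against 1.4998.

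Libraries with the same replicate number showed no shared deviation of 1 sign in the LN (correlations of -0.05 to 0.05 in conventional CD4 T cells, -0.12 to 0.07 in CD8 without Ccl5 and -0.25 to 0.15 in the wider class), and with 2 pairs the BM ones (0.052 to 0.314) do not settle it. A fit with the replicate number as a block gave 16 calls in CD8 without Ccl5 homo, 3 in B cells and 18 in BM Y665H, and called Myo6 in LN conventional CD4 het (2.57) and in BM Y665F (1.01).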
